A study of Homo sapiens with 16 samples.

Results

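The 42 genes described here encode proteins of mitosis and of the G2/M step of the cell cycle. They were chosen by symbol from a fixed list, with no measured value in the rule, though with earlier results of these data known. All 42 were found among the 58302 gene identifiers counted in each library, and all 42 passed the filter on low counts in every comparison. By role they comprised 8 genes of entry into mitosis, 9 of the spindle checkpoint and the anaphase-promoting complex, 8 of the chromosomal passenger complex and the centromere, 6 of the spindle, 5 of cytokinesis and 6 of the mitotic chromosome. They were measured in HEK293, a widely used line derived from human embryonic kidney, in which Gemin5, an RNA-binding protein of the SMN complex, was silenced with a small interfering RNA at 100 nM (siRNAG5) or was not (Ctrl). The sources differ on the Ctrl cells: the labels call them untreated, whereas the protocol lists a control siRNA and the study's account of the Gemin5 blot calls Ctrl a siRNA control. Input RNA came from the cytoplasmic lysate and Polysome RNA from the heavy fractions of a gradient, pooled, with 4 libraries in each of the 4 groups. The study describes the 4 as independent biological samples of a single line and used a single siRNA against Gemin5, and no synchronization of the cells is stated.

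Transit through G2 and mitosis is driven by cyclin-dependent kinase 1 bound to cyclin B, and is left when the anaphase-promoting complex, a ubiquitin ligase, marks cyclin B and securin for destruction. The mRNAs of most of these genes are low in G1 and rise towards mitosis, since their promoters are held silent by the DREAM complex and are then switched on by MuvB with B-MYB and FOXM1. In a growing culture the level of such an mRNA therefore depends on the share of cells in G2 and mitosis as well as on the amount in each cell. In these bulk libraries fewer cells of that phase and less RNA per cell cannot be told apart.

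Each library held 11145324 to 24511299 reads on genes, and the 42 genes took 0.325 to 0.557% of them, with at least 30 reads for each gene in each library. Depth ran with treatment in Input, at 13347866 to 18053614 reads in Ctrl and 18411789 to 24511299 in siRNAG5. In Polysome the ranges were 11145324 to 14955873 and 14407396 to 16884295. GEMIN5 itself fell in Input from 17.9 ± 2.32 to 6.71 ± 0.528 CPM (reads on a gene per 1000000 reads on genes, scaled by TMM factors over the 16 libraries; mean ± SD, n = 4 here and below), a log2 fold change of -1.40 ± 0.12 (SE, adjusted p 3.11e-10), with the 4 Ctrl libraries at 15.9 to 20.6 and the 4 siRNAG5 libraries at 6.22 to 7.45 CPM. VIM, NEFL, NEFM, INA, PAX2 and LHX1, which HEK293 cells are known to express, summed to 345 to 1390 CPM per library, with none of the 6 at 0 in any group. The sum was mostly VIM, with 175589 reads over the 16 libraries, against 324 for PAX2 and 319 for LHX1. In Input 5 of the 6 passed the filter on low counts. Of 13 liver genes, the summed level was 120 to 137 CPM in Input Ctrl 3 and 4 and 74.0 to 153 CPM in the 4 Polysome Ctrl libraries, against 0.371 to 2.58 CPM in the other 10 libraries. Their part in the differences below was not tested. In Polysome they ran with treatment, at 74.0 to 153 CPM in Ctrl and 0.371 to 0.875 CPM in siRNAG5. Silencing and these reads therefore cannot be told apart there. The counts of members called in Input, and in Polysome against Input in Ctrl, are also given without Input Ctrl 3 and 4. For Polysome against Input in Ctrl that fit is no check on the liver reads, since all 4 Polysome Ctrl libraries keep them. Among the Polysome libraries, Ctrl 1, siRNAG5 1 and siRNAG5 4 lay apart from the rest on the third principal component of all genes, which held 8.26% of the variance, and the counts of members called in Polysome, together with the named calls that end, are also given without them.

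Promoter stretches of called genes are shown with the letters of the cell cycle genes homology region (CHR), through which DREAM and MuvB act. A match to these letters alone does not show a working element. Promoters of 300 bases (250 before to 50 after the start site, RefSeq, GRCh38.p14) were at hand for 36 of the 42 genes, and were searched on both strands for the CHR letters TTTGAA or TTCGAA and for CCAAT, the box bound by NF-Y. The CHR letters stood in 25 of the 36 (69.4%), against 10.8% of the promoters of 10419 genes tested in Input and 2 of 35 (5.71%) for genes of DNA replication and S phase. CCAAT stood in 27 of the 36 (75%), against 37.0% of all promoters and 20 of 35 (57.1%) for genes of DNA replication and S phase. Both motifs stood in 20 of the 36 (55.6%), against 4.70% and 5.71%. The windows that follow are read 5' to 3' on the strand of the gene, with the CHR letters in capitals, and TTCAAA is TTTGAA on the opposite strand. They are those of the called genes that held the letters and, chosen after the motif counts were seen, those of PLK1 and CCNB2, whose letters lie close before the start site downstream of CCAAT boxes.
TOP2A, chr17:40418073-40418102, minus strand: cgagtggtgcctTTTGAAgcctctctagtc
TOP2A, chr17:40418030-40418059, minus strand: ctgattggtttaTTCAAAcaaaccccggcc
SMC4, chr3:160399563-160399592, plus strand: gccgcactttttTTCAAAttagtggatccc
CENPF, chr1:214603215-214603244, plus strand: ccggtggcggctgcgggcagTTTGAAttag
ESPL1, chr12:53268256-53268285, plus strand: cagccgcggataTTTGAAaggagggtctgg
CDC20, chr1:43358791-43358820, plus strand: cctctcgtacccTTCAAAtcgcgctccgcc
CDC20, chr1:43358904-43358933, plus strand: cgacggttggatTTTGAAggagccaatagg
PLK1, chr16:23678848-23678877, plus strand: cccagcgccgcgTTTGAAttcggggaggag
CCNB2, chr15:59105105-59105134, plus strand: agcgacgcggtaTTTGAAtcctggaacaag
In ESPL1, PLK1 and CCNB2 the capitals began 31, 29 and 29 bases before the start site, whereas the pair in TOP2A began 194 and 151 bases before it. In SMC4 they began 75 bases before the start site, in CDC20 178 and 65 before it, and in CENPF 40 bases after it. Among the genes that rose, TOP2A, SMC4, CENPF and ESPL1 held the letters, whereas CENPE and KIF2C held neither motif in the window. Of the genes that fell, CDC20 held them, and no RefSeq promoter was at hand for BUB3.

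Per length of the canonical transcript (GENCODE v44), the level of the 42 genes in Input Ctrl covered a wide range. PTTG1 (securin, the inhibitor of separase) and UBE2C (the ubiquitin-conjugating enzyme of the anaphase-promoting complex) stood highest at 678 ± 15.4 and 619 ± 33.0 CPM per kb, and CENPE and MKI67 lowest at 1.05 ± 0.161 and 0.712 ± 0.0564 CPM per kb. The median of the 42 was 15.3 CPM per kb, against 3.24 over 14088 genes. Reads of PTTG1 are uncertain, since near-identical copies (PTTG2, PTTG3P) can share them.

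The comparison of siRNAG5 with Ctrl in Input asks how the level of each mRNA in the cytoplasm changed upon Gemin5 silencing. The 42 genes did not move as a block. The mRNA of TOP2A, the topoisomerase that untangles chromosomes before they separate, rose most, and KIF2C, CENPE, SMC4, CENPF and ESPL1 also rose, whereas BUB3 and CDC20 fell. The call required an adjusted p under 0.05 (edgeR quasi-likelihood test, Benjamini-Hochberg over all genes) together with a log2 fold change beyond 0.5. By that rule 2 of the 42 fell, against 6.02% of the 14134 genes tested, and 6 rose (14.3%), against 10.5%. The median log2 fold change of the 42 was 0.07, against 0.04 over all genes, and 15 of the 42 lay below 0. With the adjusted p alone, and no minimum fold, 9 were lower and 11 higher, against 19.1% and 17.9% of all genes. The siRNAG5 libraries did not overlap the Ctrl libraries in 9 members that were lower and 8 that were higher, against 19.1% and 15.1% of all genes. The counts in either direction thus stood near those of all genes, and what follows describes which members they were. Without Input Ctrl 3 and 4, 2 fell (BUB3 -0.59 and CDC20 -0.52), against 6.64% of all genes, and 5 rose, against 9.97%. Those 5 were TOP2A (0.91), KIF2C (0.75), SMC4 (0.56), CENPF (0.53) and ESPL1 (0.52).

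**Figure D1:**
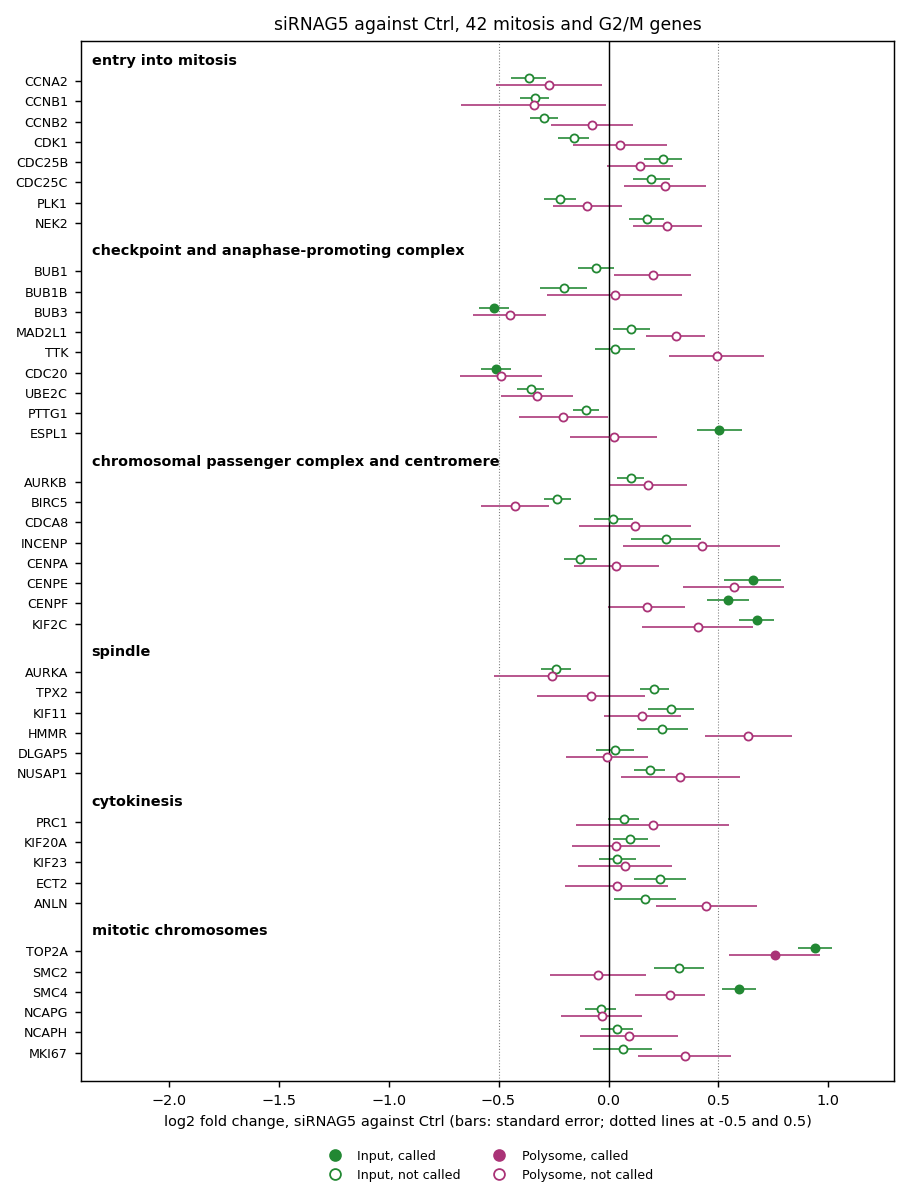
Log2 fold change of siRNAG5 against Ctrl (horizontal axis) for each of the 42 genes, grouped by role, in Input (green) and Polysome (purple). Points are edgeR estimates from 4 libraries against 4, bars are standard errors, and filled points were called: 2 lower and 6 higher in Input, and TOP2A alone in Polysome.

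Genes of entry into mitosis leaned lower in Input, and none was called, against 6.02% lower and 10.5% higher over all genes. CCNB1, cyclin B1, measured 333, 404, 374 and 352 CPM in Input Ctrl 1 to 4 and 266, 289, 299 and 294 CPM in siRNAG5 1 to 4. Every siRNAG5 library was below every Ctrl library, and the log2 fold change was -0.34 ± 0.07 (SE) with an adjusted p of 2.03e-04, within the minimum fold. CDK1, the kinase that cyclin B activates, measured 191, 196, 167 and 183 CPM in Ctrl and 141, 173, 167 and 172 CPM in siRNAG5. These groups overlapped, since Ctrl 3 lay within the siRNAG5 range, and the log2 fold change of -0.16 ± 0.07 (SE) did not pass (adjusted p 0.0798). PLK1, polo-like kinase 1, which acts on CDC25C and the centrosomes, measured 179, 234, 199.6 and 209.6 CPM in Ctrl and 177, 171, 183 and 168 CPM in siRNAG5. Only Ctrl 1 reached into the siRNAG5 range, and the log2 fold change was -0.22 ± 0.07 (SE) (adjusted p 0.0163). CCNA2 (cyclin A2) and CCNB2 (cyclin B2) had log2 fold changes of -0.36 ± 0.08 (SE) and -0.29 ± 0.07 (SE), with adjusted p of 5.97e-04 and 6.73e-04 and no overlap of the groups. The phosphatases that activate CDK1 went the other way at 0.25 ± 0.09 (SE) for CDC25B (adjusted p 0.0242) and 0.19 ± 0.08 (SE) for CDC25C (adjusted p 0.0683), as did the centrosomal kinase NEK2 at 0.17 ± 0.08 (SE) (adjusted p 0.0900). The median of the 8 genes was -0.19. On the other strand, EXOSC9 overlaps 9.24% of the exonic bases of CCNA2, and ERN2 with another gene overlaps 9.91% of those of PLK1. Reads could be shared there if strand was not used in counting.

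Among the 9 genes of the spindle checkpoint and the anaphase-promoting complex, BUB3 and CDC20 fell and ESPL1 rose, where 6.02% of all genes fell and 10.5% rose. BUB3 places the checkpoint kinases on unattached kinetochores. Its level was 365, 382, 331 and 348 CPM in Ctrl and 214, 258, 256 and 256 CPM in siRNAG5. All 4 silenced libraries lay below all controls, with siRNAG5 1 lowest, and the log2 fold change was -0.52 ± 0.07 (SE) (adjusted p 5.60e-07). CDC20 is the activator of the anaphase-promoting complex that the checkpoint holds in check. In Ctrl it stood at 369.7, 452, 428 and 387 CPM and in siRNAG5 at 279, 284, 287 and 288 CPM. The silenced libraries lay close together and below each control, and the log2 fold change was -0.51 ± 0.07 (SE) (adjusted p 4.95e-07). ESPL1 encodes separase, the protease that cuts cohesin at anaphase. It measured 14.3, 18.6, 17.1 and 17.1 CPM in Ctrl and 26.2, 23.5, 21.8 and 23.4 CPM in siRNAG5. Each silenced library exceeded each control, and the log2 fold change was 0.50 ± 0.10 (SE) (adjusted p 1.98e-04). These 3 values sat at the edge of the minimum fold: without single Input libraries BUB3 spanned -0.56 to -0.46, CDC20 -0.57 to -0.46 and ESPL1 0.43 to 0.56, and each lost its call in 2 of 8 such fits (BUB3 without Ctrl 2 or siRNAG5 1, CDC20 without Ctrl 2 or Ctrl 3, ESPL1 without Ctrl 1 or siRNAG5 1). ESPL1 also fell short of the minimum fold with DESeq2, with RLE normalization and with all 16 libraries in 1 fit, at 0.4946 to 0.4965, and CDC20 with no filter on low counts, at -0.494. UBE2C was lower at -0.35 ± 0.06 (SE) (adjusted p 3.35e-05), with no overlap of the groups and within the minimum fold. The checkpoint kinases BUB1 and TTK, the checkpoint proteins BUB1B and MAD2L1, and securin (PTTG1) had log2 fold changes of -0.20 to 0.10, and none passed. On the same strand, PAK6 and BUB1B-PAK6 overlap 10.6% of the exonic bases of BUB1B, so its reads are uncertain in Input and in Polysome.

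In the chromosomal passenger complex and the centromere, 3 of 8 genes rose and none fell, against 10.5% and 6.02% of all genes. KIF2C is a kinesin that removes tubulin from microtubule ends and corrects faulty attachments at the centromere. It stood at 30.2, 30.3, 32.5 and 35.1 CPM in Ctrl and 52.5, 49.9, 49.9 and 50.2 CPM in siRNAG5. The groups were far apart, and the log2 fold change was 0.67 ± 0.08 (SE) (adjusted p 7.64e-08). CENPE, the kinesin that carries chromosomes to the metaphase plate, had 9.54, 10.7, 7.91 and 7.86 CPM in Ctrl and 11.3, 14.1, 14.7 and 16.1 CPM in siRNAG5. The lowest silenced library, siRNAG5 1, lay just above the highest control, and the log2 fold change was 0.66 ± 0.13 (SE) (adjusted p 1.57e-04). Without Input Ctrl 3 and 4, the 2 lowest controls, it was 0.48 ± 0.16 (SE, adjusted p 0.0204) and no longer called. CENPF, a large protein of the outer kinetochore, measured 22.9, 18.8, 19.6 and 21.8 CPM in Ctrl and 27.0, 28.1, 30.6 and 33.6 CPM in siRNAG5. All silenced libraries exceeded all controls, and the log2 fold change was 0.54 ± 0.09 (SE) (adjusted p 3.81e-05), a call lost without Ctrl 2 or without siRNAG5 4. The passenger complex itself, made of the kinase AURKB with INCENP, BIRC5 (survivin) and CDCA8 (borealin), held no called gene, with log2 fold changes from -0.23 to 0.26. Of these only BIRC5 had an adjusted p under 0.05 (-0.23 ± 0.06 (SE), adjusted p 0.00375). CENPA, the histone H3 variant that marks the centromere, stood at -0.13 ± 0.07 (SE) (adjusted p 0.180).

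No gene of the spindle or of cytokinesis was called in Input, against 6.02% lower and 10.5% higher over all genes. AURKA, the kinase that matures centrosomes, was lower at -0.24 ± 0.07 (SE) (adjusted p 0.00643), and its activator TPX2 was higher at 0.21 ± 0.07 (SE) (adjusted p 0.0139), both within the minimum fold. The spindle kinesin KIF11 (0.28 ± 0.11 (SE)) and the microtubule bundler NUSAP1 (0.19 ± 0.07 (SE)) were likewise higher within that fold, with adjusted p of 0.0355 and 0.0371. HMMR and DLGAP5, which bind spindle microtubules, had log2 fold changes of 0.24 ± 0.12 (SE) and 0.03 ± 0.09 (SE) and did not pass. The 5 cytokinesis genes PRC1 (which crosslinks midzone microtubules), the midzone kinesins KIF20A and KIF23, ECT2 (which activates RhoA at the cell equator) and ANLN (the scaffold anillin) ran from 0.04 to 0.24, and none passed. An antisense gene overlaps 38.8% of the exonic bases of PRC1, so its reads are uncertain.

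Among the 6 genes of the mitotic chromosome TOP2A and SMC4 rose (33.3%) and none fell, against 10.5% and 6.02% of all genes. TOP2A measured 51.8, 50.8, 44.6 and 54.3 CPM in Input Ctrl 1 to 4 and 86.6, 102, 90.2 and 103 CPM in siRNAG5 1 to 4. The lowest silenced library stood well above the highest control, and the log2 fold change of 0.94 ± 0.08 (SE) (adjusted p 2.31e-10) was the largest of the 42. It was called under all 17 alternatives in Input, between 0.88 and 0.98. SMC4, an ATPase of condensin, measured 40.8, 40.8, 37.7 and 40.8 CPM in Ctrl and 52.2, 63.8, 61.9 and 61.0 CPM in siRNAG5. The groups did not overlap, and the log2 fold change was 0.59 ± 0.08 (SE) (adjusted p 6.23e-07). On its strand's opposite side IFT80 and TRIM59 overlap 32.3% of the exonic bases of SMC4, so reads could be shared if strand was not used in counting, which is not given in the sources used here. Its partner SMC2 was higher at 0.32 ± 0.11 (SE) (adjusted p 0.0281), within the minimum fold, while the condensin I subunits NCAPG and NCAPH stood at -0.04 ± 0.07 (SE) and 0.04 ± 0.07 (SE). LCORL overlaps 35.6% of NCAPG on the other strand, with the same limit. MKI67, which codes for the proliferation marker Ki-67, a coat of the mitotic chromosome, had 8.15, 8.90, 9.33 and 9.85 CPM in Ctrl and 8.32, 7.58, 9.50 and 11.9 CPM in siRNAG5. The silenced libraries spanned a wider range than the controls and enclosed them, and the log2 fold change was 0.06 ± 0.14 (SE) (adjusted p 0.746).

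**Figure D2:**
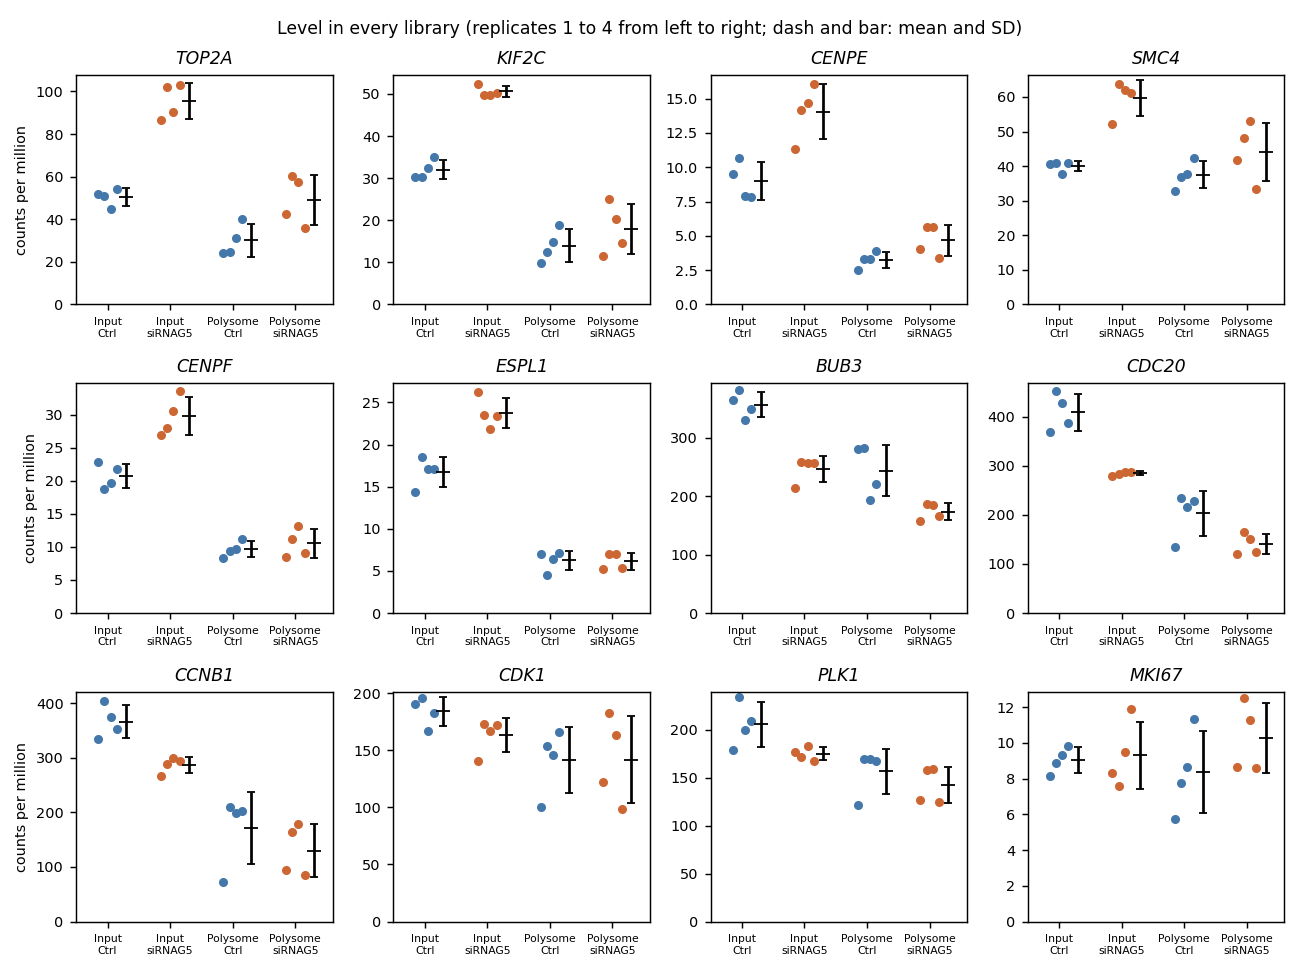
Level of 12 genes (vertical axes, CPM, from 0) in each of the 16 libraries, in Ctrl (blue) and siRNAG5 (orange), Input and Polysome; each point is a library and the dash and bar give the mean and SD of 4. TOP2A, KIF2C and SMC4 are separated in Input, CDC20 and BUB3 lie lower in siRNAG5, and CCNB1, CDK1 and PLK1 spread widely in Polysome with Polysome Ctrl 1 low.

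The change in Input varied with transcript length across the 42 genes. Spearman's rho between the log2 fold change and the length of the canonical transcript was 0.53 over the 42 genes and 0.17 over 14088 genes, a description of values that share the same 8 libraries. The 14 members under 2500 nt had a median log2 fold change of -0.14, and the 15 members of at least 4000 nt had a median of 0.26. For all genes of these lengths the medians were -0.03 and 0.11. BUB3, at 7703 nt, and KIF2C, at 2862 nt, stood off this relation. With offsets for the length and GC content of the transcript in each library, TOP2A, KIF2C, SMC4 and CENPE (higher) and BUB3 (lower) were still called, whereas CENPF at 0.43, ESPL1 at 0.36 and CDC20 at -0.49 came to lie within the minimum fold. How far length itself, or a measurement that varies with it, sets these changes was not tested.

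**Figure D3:**
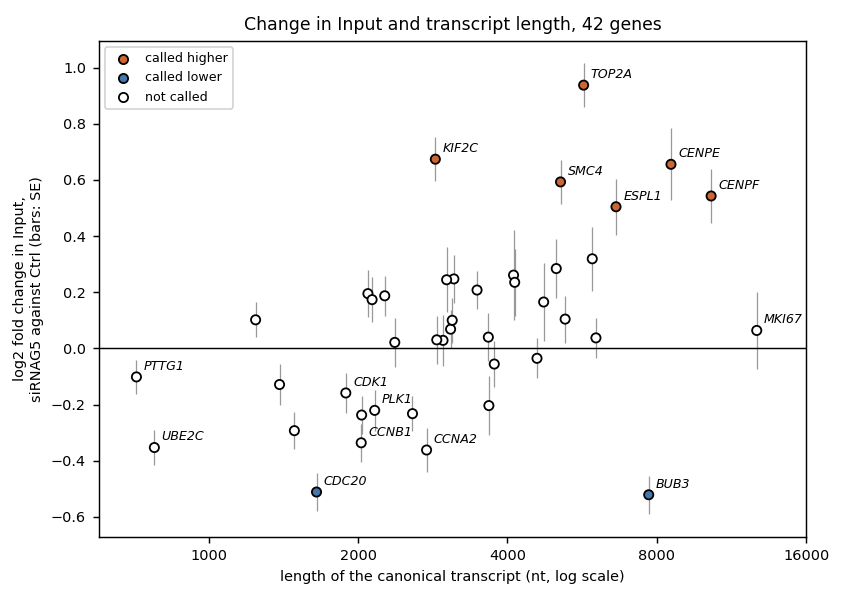
Log2 fold change in Input, siRNAG5 against Ctrl (vertical axis, bars: standard error), against the length of the canonical transcript (horizontal axis, nt, log scale) for the 42 genes. The genes called higher, other than KIF2C, have at least 5116 nt, and CDC20, called lower, has 1649 nt.

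In Polysome the question was whether the same mRNAs changed among those sedimenting with several ribosomes. TOP2A rose and no other member was called, so that 1 of 42 was called higher, against 3.95% of 14420 genes, and 0 lower, against 4.00%; at an unadjusted p under 0.05 there were 8 members, against 27.7% of all genes. The median log2 fold change was 0.08, against 0.03 over all genes. Groups did not overlap in 2 members that were lower (BUB3 and BIRC5), against 10.0% of all genes, and 1 that was higher (MAD2L1), against 8.29%. TOP2A measured 24.1, 24.4, 31.3 and 40.3 CPM in Polysome Ctrl 1 to 4 and 42.3, 60.2, 57.5 and 36.0 CPM in Polysome siRNAG5 1 to 4. The 2 groups overlapped, since Ctrl 4 exceeded siRNAG5 4, and the log2 fold change of 0.76 ± 0.21 (SE) had an adjusted p of 0.0471. The call was lost in 6 of the 8 fits without a single library (without Ctrl 1, 2 or 3 or siRNAG5 1, 2 or 3), where the estimate ran from 0.65 to 0.91.

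The members called in Input kept wide spreads in Polysome. BUB3 measured 280.0, 282, 193 and 220.1 CPM in Ctrl and 157, 187, 185 and 166 CPM in siRNAG5. Each silenced library was below each control, and the log2 fold change was -0.45 ± 0.17 (SE) (adjusted p 0.110). With the length and GC offsets BUB3 was called lower at -0.69 (adjusted p 0.030). For CDC20 the values were 135, 234, 216 and 229 CPM in Ctrl and 121, 165, 150.0 and 125 CPM in siRNAG5. Ctrl 1 alone fell into the silenced range, and the log2 fold change was -0.49 ± 0.19 (SE) (adjusted p 0.119). Without Ctrl 1 CDC20 was called at -0.64 ± 0.16 (SE, adjusted p 0.0420). CDC20 was also called lower with DESeq2 (-0.53, adjusted p 0.0499), in 1 fit of 16 libraries (-0.54) and with 1 surrogate variable (-0.54). CENPE gave 2.495, 3.29, 3.29 and 3.93 CPM in Ctrl and 4.04, 5.61, 5.64 and 3.36 CPM in siRNAG5. The siRNAG5 4 library lay inside the control range, and the log2 fold change was 0.57 ± 0.23 (SE) (adjusted p 0.132). KIF2C gave 9.81, 12.3, 14.8 and 18.9 CPM in Ctrl and 11.6, 24.99, 20.3 and 14.5 CPM in siRNAG5. The groups overlapped, at a log2 fold change of 0.41 ± 0.25 (SE) (adjusted p 0.318). SMC4, with 32.9, 37.0, 37.7 and 42.3 CPM in Ctrl and 41.8, 48.0, 53.2 and 33.4 CPM in siRNAG5, also overlapped and stood at 0.28 ± 0.16 (SE) (adjusted p 0.278). CENPF had 8.40, 9.33, 9.64 and 11.2 CPM in Ctrl and 8.54, 11.3, 13.2 and 9.12 CPM in siRNAG5, with a log2 fold change of 0.17 ± 0.18 (SE) (adjusted p 0.555). ESPL1 had 6.99, 4.53, 6.36 and 7.07 CPM in Ctrl and 5.22, 6.96, 7.04 and 5.30 CPM in siRNAG5, and here the groups lay over each other at 0.02 ± 0.20 (SE) (adjusted p 0.956).

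For the mRNAs of cyclin B1, CDK1 and PLK1, described in Input above, libraries of both treatments stood low in Polysome. CCNB1 measured 71.7, 210.2, 199 and 202 CPM in Ctrl 1 to 4 and 93.7, 163, 178 and 84.5 CPM in siRNAG5 1 to 4. Polysome Ctrl 1, siRNAG5 1 and siRNAG5 4 were under 100 CPM and the other 5 above 160 CPM, so that both treatments held low and high libraries, and the log2 fold change was -0.34 ± 0.33 (SE) (adjusted p 0.536). CDK1 gave 100.2, 154, 146 and 166 CPM in Ctrl and 123, 182, 164 and 98.2 CPM in siRNAG5, and PLK1 gave 121, 169, 169 and 167 CPM in Ctrl and 126, 158, 159 and 125 CPM in siRNAG5. The same 3 libraries were the lowest for both genes, though not for every kinase of the list, since TTK in siRNAG5 1 (18.2 CPM) lay above all 4 Ctrl libraries (12.6 to 17.3 CPM), and the log2 fold changes were 0.05 ± 0.21 (SE) and -0.10 ± 0.16 (SE) (adjusted p 0.905 and 0.728). MKI67 measured 5.74, 7.75, 8.64 and 11.3 CPM in Ctrl and 8.65, 12.5, 11.3 and 8.61 CPM in siRNAG5, with a log2 fold change of 0.35 ± 0.21 (SE) (adjusted p 0.312). Among the other members HMMR, which binds spindle microtubules and hyaluronan, had the next largest change after TOP2A, 0.64 ± 0.20 (SE) with an adjusted p of 0.0667, and BIRC5 and TTK stood at -0.42 ± 0.15 (SE) and 0.49 ± 0.22 (SE) with adjusted p of 0.104 and 0.164. HMMR was called higher with DESeq2 (0.60, adjusted p 0.0352), with no filter (0.67), in 1 fit of 16 libraries (0.59) and with 1 surrogate variable (0.57). Without siRNAG5 4 both HMMR (0.75, adjusted p 0.0362) and TTK (0.66, adjusted p 0.0430) were called higher.

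The 3 Polysome libraries apart on the third component were also those in which most of the 42 genes were low. Against the mean of the 8 Polysome libraries, 36 of the 42 genes lay lower in Ctrl 1, 32 in siRNAG5 1 and 38 in siRNAG5 4, and 4 to 23 did in the other 5. The median deviation of the 42 on the log2 scale was -0.40 in Ctrl 1, -0.19 in siRNAG5 1 and -0.26 in siRNAG5 4, and -0.06, 0.09 and 0.22 in Ctrl 2, 3 and 4 and 0.26 and 0.33 in siRNAG5 2 and 3. Over all genes the median deviations ran from -0.01 to 0.06. The pattern was shared by other lists: in the same 3 libraries the medians were -0.39, -0.16 and -0.24 for the 40 genes of DNA replication and S phase, of which 37, 31 and 33 lay lower, and -0.21, -0.09 and -0.13 for 108 other genes of the pathway. In Input the medians of the 42 ran from -0.10 (siRNAG5 1) to 0.09 (siRNAG5 4). The share of reads that aligned to several places was 27.6, 42.4 and 26.6% in Polysome Ctrl 1, siRNAG5 1 and siRNAG5 4, within the 21.2 to 42.4% of all Polysome libraries. Spearman's rho of the deviation of all genes with transcript length was -0.46, -0.18 and -0.34 in these 3 libraries, and -0.40 to 0.56 in the other 5. The labels give no batch or date that separates them, and what sets them apart was not tested.

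**Figure D4:**
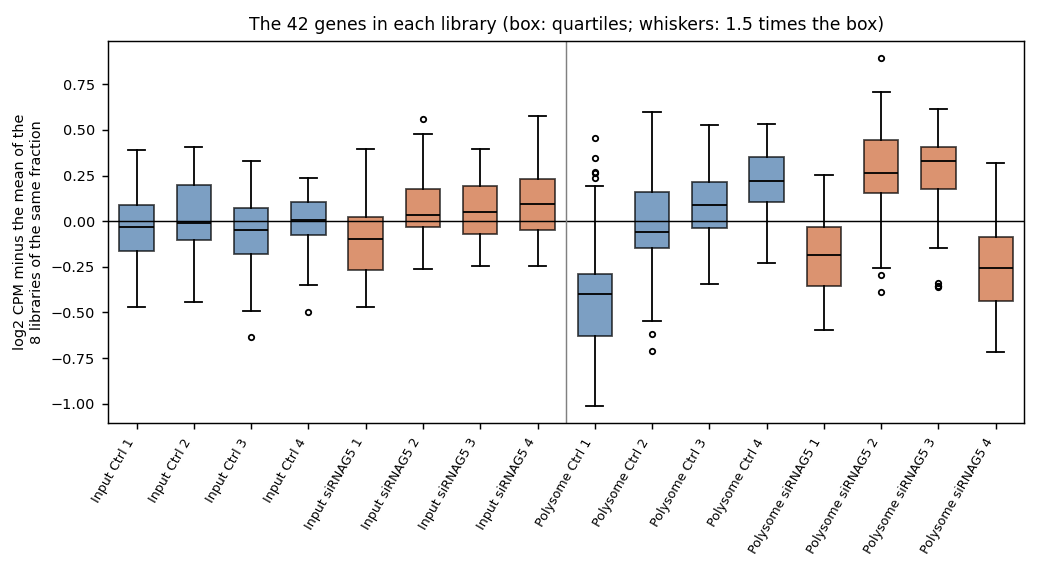
Deviation of each of the 42 genes from its mean over the 8 libraries of the same fraction (vertical axis, log2 CPM) in each library; boxes give the quartiles, the line the median, Ctrl is blue and siRNAG5 orange. Polysome Ctrl 1, siRNAG5 1 and siRNAG5 4 lie below 0, with medians of -0.40, -0.19 and -0.26, and the Input medians stay within -0.10 to 0.09.

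Without these 3 libraries, a comparison of 3 Ctrl with 2 siRNAG5 libraries chosen after the data were seen, more members were called in Polysome. Then 6 rose, against 9.02% of all genes, and 1 fell, against 12.1%, and the median of the 42 was 0.23. TOP2A was joined by HMMR at 0.76, CENPE at 0.75, TTK at 0.74, KIF2C at 0.63 and NUSAP1 at 0.50, and BIRC5 fell by 0.54 on the log2 scale.

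Whether a member changed differently in Polysome and in Input was tested directly. No member was called in the difference between the fractions, against 0% of 14958 genes in either direction; 1 of the 42 and 1089 of all genes had an unadjusted p under 0.05 (7.28% of all genes), and DESeq2 called 0 of the 42 and, over all genes, 11 lower and 18 higher. The differences (change in Polysome minus change in Input) ran from -0.51 ± 0.21 (SE) for ESPL1 to 0.43 ± 0.24 (SE) for TTK, with adjusted p of 0.585 and 0.740 and a median of 0.01. Members called in Input and not in Polysome are therefore not shown to differ between the fractions. Without the 3 libraries TTK, the kinase that starts the checkpoint, was called at 0.68 ± 0.15 (SE, adjusted p 0.00668), and no other member was; over all genes 0.691% were then called higher and 4.30% lower.

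Polysome was also compared with Input within each treatment, which gives the share of each mRNA in polysomes relative to the other genes of the same libraries. By the study's account each lysate gave both its Input and its Polysome RNA. The main fits held no pairing term and treated all libraries as independent, and fits with a replicate block are given at the end. Many of the 42 mRNAs were under-represented in Polysome. In Ctrl 22 of 42 (52.4%) were lower, against 18.8% of 13666 genes, and 2 were higher, against 20.8%. In siRNAG5 20 (47.6%) were lower, against 21.2% of 14795 genes, and 3 were higher, against 23.9%. The median log2 difference of the 42 was -0.54 in Ctrl and -0.39 in siRNAG5, against -0.03 and -0.04 over all genes. Polysome and Input libraries did not overlap in 24 members that were lower and 3 that were higher in Ctrl, against 23.2% and 21.1% of all genes, and in 22 and 4 in siRNAG5, against 27.5% and 22.9%. The treatments share no library in this comparison, and 19 members were lower in both, 86.4% of the Ctrl list and 95.0% of the siRNAG5 list; over all genes tested in both the shares were 83.7% and 73.1%.

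**Figure D5:**
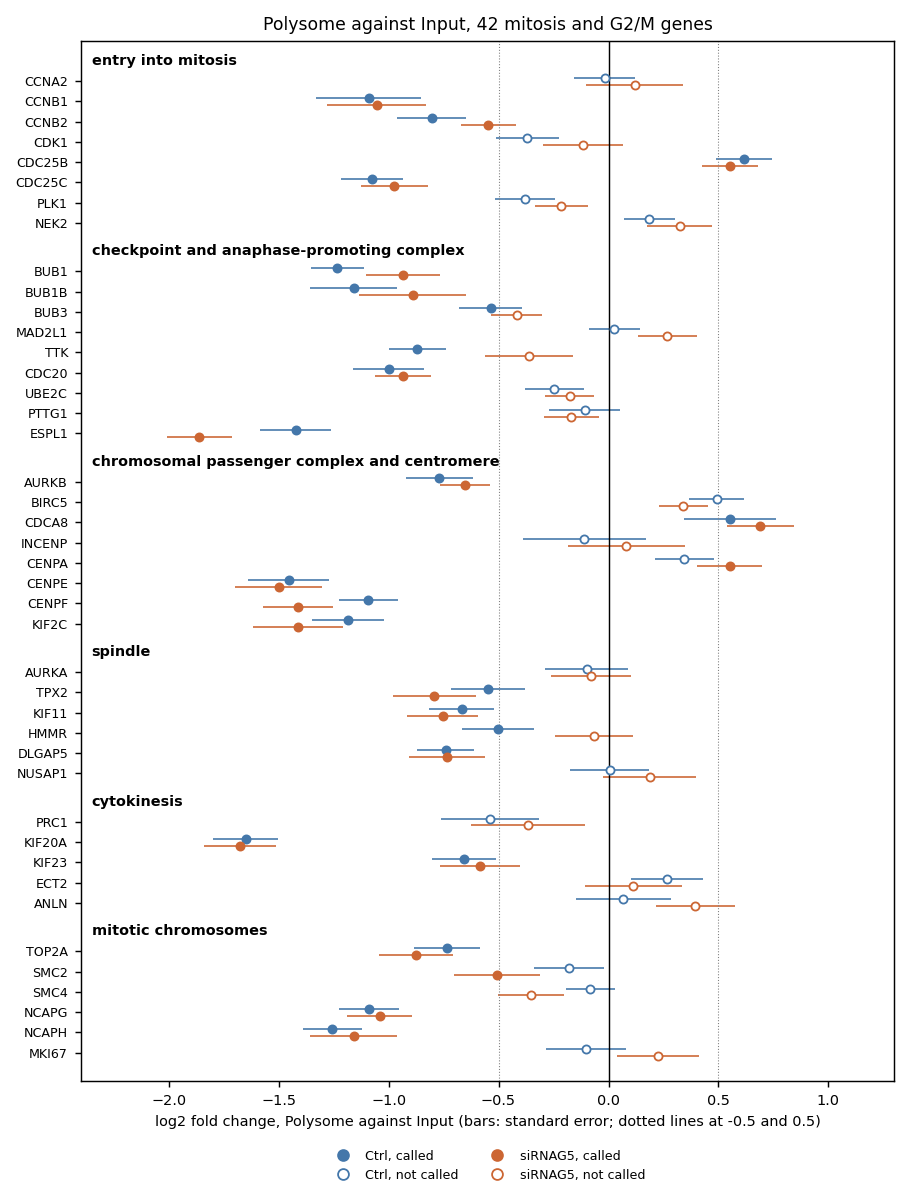
Log2 fold change of Polysome against Input (horizontal axis) for each of the 42 genes, grouped by role, in Ctrl (blue) and siRNAG5 (orange); points are edgeR estimates from 4 libraries against 4, bars are standard errors, and filled points were called. In Ctrl 22 genes were lower and 2 higher, in siRNAG5 20 were lower and 3 higher, and KIF20A, CENPE and ESPL1 lie farthest to the left.

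The lowest Polysome to Input values belonged to genes of several roles. KIF20A, the kinesin that brings the passenger complex to the midzone, measured 47.1, 57.7, 52.9 and 54.5 CPM in Input Ctrl and 13.1, 14.8, 17.4 and 21.9 CPM in Polysome Ctrl. The ranges were well apart, and the log2 fold change was -1.65 ± 0.15 (SE) in Ctrl and -1.68 ± 0.16 (SE) in siRNAG5 (adjusted p 4.71e-07 and 8.56e-06). In Ctrl CENPE followed at -1.45 ± 0.18 (SE) and ESPL1 at -1.42 ± 0.16 (SE). In siRNAG5 ESPL1 was the lowest of the 42 at -1.86 ± 0.15 (SE), and CENPE stood at -1.50 ± 0.20 (SE). Of the checkpoint genes BUB1 and BUB1B were lower at -1.23 ± 0.12 (SE) and -1.16 ± 0.20 (SE) in Ctrl, and CDC20 at -0.999 ± 0.16 (SE), and they stood at -0.94 ± 0.17 (SE), -0.89 ± 0.24 (SE) and -0.94 ± 0.13 (SE) in siRNAG5, all called. Without the 3 Polysome libraries apart BUB1 (-0.61) and CDC20 (-0.68) were called in siRNAG5 and BUB1B (-0.40) was not. The condensin subunits divided in Ctrl: NCAPH and NCAPG were lower at -1.26 ± 0.13 (SE) and -1.09 ± 0.14 (SE) in Ctrl, whereas SMC4 stood at -0.08 ± 0.11 (SE) and SMC2 at -0.18 ± 0.16 (SE), neither called. In siRNAG5 SMC2 was called lower at -0.51 ± 0.19 (SE) (adjusted p 0.0450) beside NCAPH (-1.16 ± 0.20 (SE)) and NCAPG (-1.04 ± 0.15 (SE)), and SMC4 stood at -0.35 ± 0.15 (SE). The SMC2 call was lost with DESeq2 (-0.496), with RLE normalization (-0.495), with no filter (-0.47) and without the 3 Polysome libraries apart (-0.13). Cyclin mRNAs divided as well, with CCNB1 lower at -1.09 ± 0.24 (SE) in Ctrl and -1.05 ± 0.23 (SE) in siRNAG5, CCNB2 lower at -0.80 ± 0.16 (SE) and -0.55 ± 0.12 (SE), and CCNA2 at -0.02 ± 0.14 (SE) and 0.12 ± 0.22 (SE), not called. The siRNAG5 call of CCNB2 was lost without the 3 libraries (-0.29), with the length and GC offsets (-0.29) and without Polysome siRNAG5 1 (-0.496) or 4 (-0.44), and CCNB1 without the 3 libraries was -0.57 and called. Among the phosphatases CDC25C was lower at -1.07 ± 0.14 (SE) in Ctrl and CDC25B higher at 0.61 ± 0.13 (SE), with -0.97 ± 0.15 (SE) and 0.55 ± 0.13 (SE) in siRNAG5, where CDC25B was not called without Polysome siRNAG5 2 or 3.

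The other member higher in Polysome in both treatments was CDCA8, at 0.55 ± 0.21 (SE) in Ctrl (adjusted p 0.0399) and 0.69 ± 0.15 (SE) in siRNAG5 (adjusted p 0.00232). In Ctrl its Polysome libraries overlapped those of Input, since Polysome Ctrl 1 at 18.1 CPM lay below every Input Ctrl library, and the call was kept in 1 of the 8 fits without a single library, the one without Polysome Ctrl 1. It was also lost without Input Ctrl 3 and 4 (0.57, adjusted p 0.141), as was the lower call of TPX2 in Ctrl (-0.58, adjusted p 0.0636). That fit called 21 members lower, against 14.7% of all genes, and 1 higher, against 15.5%. All Polysome Ctrl libraries in it held the liver reads, so it is no check on them. CENPA was higher in siRNAG5 at 0.55 ± 0.15 (SE) (adjusted p 0.00763). It measured 78.4, 55.8, 51.4 and 82.0 CPM in Polysome siRNAG5 1 to 4, and libraries 1 and 4, low for most members, were its highest. Its call was lost without library 1 (0.47), without library 4 (0.47) and without the 3 Polysome libraries apart (0.33). By role, 3 of 8 entry genes, 6 of 9 checkpoint genes, 4 of 8 passenger and centromere genes, 4 of 6 spindle genes, 2 of 5 cytokinesis genes and 3 of 6 chromosome genes were lower in Ctrl, against 18.8% of all genes. The difference of these values between siRNAG5 and Ctrl is the difference between the fractions tested above, in which no member was called.

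The under-representation in Polysome did not run with length as it did over all genes. Spearman's rho between length and the Polysome to Input log2 fold change was -0.20 over the 42 genes and 0.41 over all genes in Ctrl, and -0.25 and 0.44 in siRNAG5. With the length and GC offsets 23 members were lower in Ctrl, against 18.6% of all genes, and 21 in siRNAG5, against 22.3%. Without the 3 Polysome libraries apart, 12 members were lower in siRNAG5, against 23.5% of all genes, and 9 higher, against 29.7%, with a median of -0.21, so the counts in siRNAG5 depended on them. The lower calls lost were those of CCNB2, BUB1B, AURKB, TPX2, KIF11, DLGAP5, KIF23 and SMC2, whose values then ran from -0.47 to -0.13. In Ctrl 20 to 22 members were lower in the 8 fits that left out 1 library, where 2309 to 2752 of all genes were lower. The 40 genes of DNA replication and S phase gave 18 lower and 5 higher in Ctrl (45% and 12.5%, median -0.39) and 15 and 6 in siRNAG5 (37.5% and 15%, median -0.38), so that low values in Polysome were also frequent in that list. The 108 other genes of the pathway gave 24 lower and 18 higher in Ctrl (22.2% and 16.7%, median -0.05) and 27 and 27 in siRNAG5 (25% each, median 0.01), near the shares of all genes.

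The other genes of the pathway, 108 in 6 lists, put the 42 in their setting. In Input 5 of the 108 fell (4.63%) and 8 rose (7.41%), against 6.02% and 10.5% of all genes, in Polysome 3 fell (2.78%) and 2 rose (1.85%), against 4.00% and 3.95%, and the median log2 fold change was 0.01 and 0.03. Of the regulators that switch G2/M promoters, TFDP1, the partner of E2F factors, fell by 0.70 on the log2 scale in Input (SE 0.07, adjusted p 6.13e-09), from 103 ± 6.62 to 62.8 ± 2.69 CPM. FOXM1, which activates G2/M genes, stood at -0.20 ± 0.07 (SE, adjusted p 0.0304) in Input, within the minimum fold, and at 0.03 ± 0.14 (SE, adjusted p 0.904) in Polysome. Among the brakes and partners of cyclin-dependent kinases CDKN1A (p21) rose in Input from 38.0 ± 4.10 to 58.5 ± 6.36 CPM, by 0.64 ± 0.09 (SE, adjusted p 9.64e-07), and in Polysome by 0.61 ± 0.13 (SE, adjusted p 0.0218). CDKN1C (p57) rose in Input by 0.65, and ENSA, an inhibitor of the phosphatase PP2A in mitosis, fell by 0.50 in Input and by 0.63 in Polysome. The ENSA call was lost in Input with no filter, with the offsets and without Ctrl 2 or 3 or siRNAG5 2 or 4 (-0.49 to -0.42). In Polysome it was lost with the offsets and without Ctrl 1 or 2 or siRNAG5 1, 2 or 3, and that of CDKN1A without Ctrl 2 or 4.

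Of 28 kinetochore genes, 2 fell and 2 rose in Input (7.14% each), against 6.02% and 10.5% of all genes. In Polysome 2 fell (7.14%) and 1 rose (3.57%), against 4.00% and 3.95%. ZWINT, which links the kinetochore to the checkpoint, fell by 0.66 in Input and by 0.57 in Polysome, and CENPM, of the inner kinetochore, fell by 0.75 and by 0.83. KNTC1, which recruits dynein, rose by 0.73 in Input and CENPC, which binds CENPA chromatin, by 0.51. KNL1, the outer kinetochore platform that recruits BUB1 and BUB3, rose in Polysome by 0.90 ± 0.23 (SE, adjusted p 0.0390). That call was lost with the offsets (0.62, adjusted p 0.0544) and without Polysome Ctrl 1, 2 or 4 or siRNAG5 1, 2 or 3 (adjusted p 0.0699 to 0.118). In Polysome the ZWINT call was lost without the same 6 libraries in turn, with no filter and with the offsets, and that of CENPM without Ctrl 1 or 2 or siRNAG5 1, 2 or 3. Of 17 further subunits and regulators of the anaphase-promoting complex ANAPC15 fell in Input by 0.52, of 15 cohesin and condensin genes NCAPD2 rose by 0.51, and of 22 spindle and cytokinesis genes KIF20B, KIF15 and CKAP5 rose by 0.70, 0.61 and 0.56. The fall was 5.88% of its list, against 6.02% of all genes, and the rises were 6.67% and 13.6% of theirs, against 10.5%. NCAPD2 and CENPC fell short of the call with DESeq2, RLE normalization, 1 fit of 16 libraries and the offsets (0.45 to 0.4984) and without Ctrl 1, NCAPD2 also without siRNAG5 1 and CENPC without siRNAG5 3. CKAP5 did so in 1 fit of 16 libraries (adjusted p 0.0511), with the offsets (0.47) and without Ctrl 1, and ANAPC15 with the offsets (-0.45) and without Ctrl 2 or siRNAG5 1. Of the 40 genes of DNA replication and S phase 2 (5%) rose in Input, the licensing factor CDT1 by 0.87 and the polymerase subunit POLD1 by 0.57. None fell, and over all genes 10.5% rose and 6.02% fell. POLD1 lost its call in 1 fit of 16 libraries (adjusted p 0.183), with the offsets (0.36) and without Ctrl 1 (0.48).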

How the data were processed

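The study measured RNA of HEK293 cells in Input and Polysome, Ctrl and siRNAG5, in 16 libraries. Per the labels and methods, the authors made TruSeq Stranded mRNA libraries, aligned 100-base paired reads with STAR 2.5.3a to GRCh38 (Ensembl release 91), counted them with QoRTs and deposited raw counts per gene. Reads listed apart from genes (21.2 to 42.4% aligned to several places in Polysome, 4.88 to 6.04% in Input) were left out. Groups and replicate numbers came from the labels.

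Here edgeR 4.0.16 (R 4.3.3; filterByExpr, TMM, quasi-likelihood test, Benjamini-Hochberg over all genes) was fitted per fraction, per treatment and, for the difference between the fractions, over all 16 libraries. Alternatives were DESeq2 1.42.0, RLE, no filter, the unadjusted p, no minimum fold, all libraries in 1 fit, 1 surrogate variable (sva 3.50.0), a replicate block and each library left out. Added after seeing the data were fits without 3 Polysome or 2 Input libraries, offsets for length and GC content, and the culture as a block. The edgeR fits were also run on simulated counts with known changes, and the outcomes are not given here. The members, gene lists and tests were chosen with earlier results of these data known. Every member is named; other genes are named where called, at most 5 per list and comparison, with CDKN1A, FOXM1 and GEMIN5. Names and coordinates are those of GENCODE v44 (GRCh38), which named 57532 of 58302 identifiers. Figures used Python 3.11.15 and matplotlib 3.10.9.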

Additional observations from a re-analysis of the deposited data

Results flagged for a closer look

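In 12 of 168 values (42 genes in 4 groups) 1 library lay far from the other 3 by Dixon's test on CPM, where chance gives about 1 in 20; the ratio given is the gap to the nearest library over the whole range. Polysome Ctrl 1 was the lowest for CCNA2 (63.2 CPM, next 101.0, ratio 0.981), CCNB1 (71.7, next 198.9, ratio 0.918), PLK1 (121.1, next 167.3, ratio 0.960) and AURKA (47.2, next 101.1, ratio 0.943). In Input Ctrl, library 3 was lowest for SMC4 (ratio 0.985) and PRC1 (ratio 0.861) and highest for MAD2L1 (ratio 0.831), and library 1 was lowest for NCAPH (ratio 0.833). In Input siRNAG5, library 1 was lowest for BUB3 (ratio 0.946) and SMC2 (ratio 0.916) and highest for KIF2C (ratio 0.855), and library 4 was highest for CDCA8 (ratio 0.961). SMC4 and KIF2C were called without each of these libraries, and BUB3 was not called without siRNAG5 1.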

How the results depend on the processing

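How far depth limits these results was not tested. Deviations of same-numbered libraries correlated between -0.53 and 0.48 for Ctrl with siRNAG5 in Polysome. For Input with Polysome of the same treatment they correlated between -0.21 and 0.22. With 4 libraries per group these values cannot show whether replicate numbers mark a shared culture. With the replicate block 2 members were lower and 6 higher in Input, and 0 and 0 in Polysome and in the difference between the fractions. In Polysome TOP2A was then 0.75 (adjusted p 0.0530), and KNL1, ENSA and ZWINT were not called either. For Polysome against Input the block gave 23 and 1 in Ctrl (CDCA8 was not called) and 20 and 3 in siRNAG5. Over all genes it called 847 lower and 1466 higher in Input and 558 and 444 in Polysome. For Polysome against Input it called 2690 and 2841 in Ctrl and 3250 and 3454 in siRNAG5. In Input, 5 were higher with DESeq2, RLE, 1 fit of 16 libraries and without Input Ctrl 3 and 4, and 4 with the length and GC offsets. With no filter and with the offsets 1 was lower, and with no minimum fold 9 were lower and 11 higher. Without single libraries 0 to 2 were lower. Over all genes DESeq2 called 1230 higher, RLE 1411 and the offsets 1279 of 14134, and 1 fit 990 of 14958. Lower calls over all genes numbered 896 of 27029 with no filter, 906 with the offsets and 696 to 956 without single libraries. In Polysome, 1 was lower and 2 higher with DESeq2, with all 16 libraries in 1 fit and with 1 surrogate variable. With no filter 2 were higher, with the unadjusted p 3 were higher, and with the offsets 1 was lower. Without the 3 libraries apart 1 was lower and 6 higher, against 12.1% and 9.02% of all genes. Without single libraries 0 to 1 were lower and 0 to 3 higher. Over all genes the main fit called 577 lower and 569 higher of 14420. DESeq2 called 1101 and 840, 1 surrogate variable 1424 and 1576, and 1 fit 1520 and 1077 of 14958. Higher calls numbered 825 of 27384 with no filter and 1599 with the unadjusted p, and lower calls 921 with the offsets. Without single libraries 113 to 836 of all genes were lower and 76 to 687 higher. In the difference, 1 was lower with the unadjusted p and 1 higher without the 3 libraries. Over all genes these counts were 517 of 14958 and 106 of 15343. In Ctrl, 4 were higher with no minimum fold and with the offsets, and 1 without Input Ctrl 3 and 4. Without single libraries 1 to 2 were higher. Over all genes the higher calls numbered 3316 and 2485 of 13666, 2215 of 14253, and 2600 to 3047 without single libraries. In siRNAG5, 12 were lower and 9 higher without the 3 libraries, against 23.5% and 29.7% of all genes. The causes were not tested. Values near 0 changed sign: MKI67 in Input was -0.0923 with the offsets and -0.0816 to 0.153 without single libraries; in Polysome ESPL1 was -0.0087 with DESeq2, -0.0108 with RLE, -0.0161 in 1 fit of 16 libraries, -0.0110 with 1 surrogate variable and -0.134 with the offsets (-0.0870 to 0.102 without single libraries), CDK1 was -0.0422 with 1 surrogate variable (-0.0805 to 0.196), CENPF -0.0733 with the offsets, and FOXM1 -0.0052 in 1 fit of 16 libraries, -0.0108 with the offsets and -0.0278 without the 3 libraries (-0.0464 to 0.096). In the comparison in which it was called, no member changed sign under any alternative run.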
